A study of Mus musculus with 6 samples.

Results

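Cyclic nucleotide signalling was followed through 40 genes of 8251 named genes measured in the hippocampus of 6 mouse samples. The genes were chosen by symbol alone: adenylyl cyclases (Adcy), guanylyl cyclases (Gucy), phosphodiesterases (Pde), the catalytic and regulatory subunits of protein kinase A (PKA; Prkac and Prkar), protein kinase G (PKG; Prkg), A-kinase anchoring proteins (Akap), and the transcription factors named Creb or Crem. Where several probe sets measured a gene, the probe set with the highest mean signal stands for it. The name of the set needs a qualification, because several of its genes encode no cyclic nucleotide enzyme. Pde6d is a chaperone of lipid-modified proteins, Pde4dip (myomegalin) is a scaffold, the anchoring proteins are adaptors, and Creb3l1 is a transcription factor held in the endoplasmic reticulum membrane.

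Each sample is total RNA from hippocampus, hybridised to its own array, in a study of mice that overexpress HuD, a neuronal RNA-binding protein encoded by Elavl4. No label gives the genotype, age, sex or strain of a sample, or says whether RNA was pooled, so no sample is called transgenic or control here and no genotypes were compared. The samples are known by the numbers 1 to 6 in their titles, which also carry codes whose meaning is not stated; they are alike except that sample 2 has le2 where the others have le1. Because no sample is assigned to a group, it is not known which arrays are replicates against which to weigh a difference, and 6 arrays limit the precision.

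In neurons, receptors coupled to stimulatory G proteins switch on membrane adenylyl cyclases, which make cyclic AMP, and nitric oxide switches on soluble guanylyl cyclase, which makes cyclic GMP. Cyclic AMP frees the catalytic subunits of PKA from their regulatory subunits, anchoring proteins hold the kinase near its targets, and phosphodiesterases end the signal. In the hippocampus the cascade is known for its part in long-lasting synaptic potentiation and memory, partly through phosphorylation of the transcription factor CREB.

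The response element of CREB was looked for in the promoters of the genes themselves, as a sequence feature that the choice of genes did not use. RefSeq promoters (build GRCm38.p6) were at hand for 28 of the 40 genes, 58 promoters in all, and the 250 bases before each start site were searched on both strands. The full element TGACGTCA, which reads the same on both strands, stood in 1 of 58 promoters (1.72%) against 1.55% of all 32851 promoters. Its first 6 letters, TGACGT, a motif that the full element contains, stood in 4 of 58 (6.90%) against 6.47%. The shorter core TGACG stood in 13 of 58 (22.4%) against 17.8%. Counted by gene, TGACGTCA stood in 1 of 28 genes (3.57%) against 1.77% of 27025, TGACGT in 4 of 28 (14.3%) against 7.29%, and TGACG in 11 of 28 (39.3%) against 19.8%. The 28 genes have more promoters each (58 for 28) than all genes (32851 for 27025), so the shares by gene are not over equal numbers of windows. The 4 promoters with TGACGT are given here as windows of 28 bases, with the match in capitals, because they are the places where the cascade's own genes carry letters of its response element. They lie at chr11:109650890-109650917 (plus strand) for Prkar1a, chr16:4420506-4420533 (minus strand) for Adcy9, chr4:102421509-102421536 (plus strand) for Pde4b and chr11:69237236-69237263 (minus strand) for Gucy2e. A match describes letters in a window and does not show a bound site.
Prkar1a: cgaggcgcatTGACGTCAgcagccgaac
Adcy9: ggacccggcggTGACGTgcgcgggccgc
Pde4b: gatttggctgcACGTCAattttctcatc
Gucy2e: atatgtaagtcTGACGTtgaattcgtgc
In Pde4b the capitals are TGACGT read on the other strand. The match starts 49 bases before the start site in Prkar1a, 24 in Adcy9, 35 in Pde4b and 230 in Gucy2e. Among the 20 genes found above the array median, as described next, Prkar1a differed least from sample to sample. Pde4b was second only to Adcy8 in how much it differed, and Adcy9 lay between Prkar1a and Pde4b. Gucy2e was not among the 20, and a link between the motif and these differences was not tested.

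Levels are given as the deposited signal, a linear intensity. For differences, signals were divided by the median of their array (59.9 to 63.3 in signal) and turned into log2 values, so that 0 is the array median. The range of a gene is its highest minus its lowest log2 value over the 6 samples. Levels are not ranked between genes. A gene counted as above the array median when its median over the samples was over 0. This held for 20 of the 40 genes, against 58.6% of all named genes, and 17 of the 20 lay above it in every sample. All 5 PKA subunits, 5 of 7 adenylyl cyclases, 5 of 12 Pde genes, 3 of 9 anchoring proteins, 1 of 3 guanylyl cyclases and 1 of 3 Creb or Crem genes were among the 20, and the single PKG gene was not.

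The ranges of the 20 genes lay near those of all genes. Their median range was 0.35 (1.27-fold), against 0.40 (1.32-fold) over all 4838 named genes above the array median, and 11 of the 20 had a range under the median of all genes. With the mean of all probe sets the order turned (0.43 against 0.40), as it did with all 40 genes and no filter (0.52 against 0.46). Only Adcy8 ranged over 1 on the log2 scale, that is, more than 2-fold between its highest and its lowest sample. That is 1 of 20 genes, against 4.20% of all genes, a share near the background. When dimmer values were raised to the array median, no gene of the 20 reached a range of 1, against 2.58% of all genes.

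**Figure D1:**
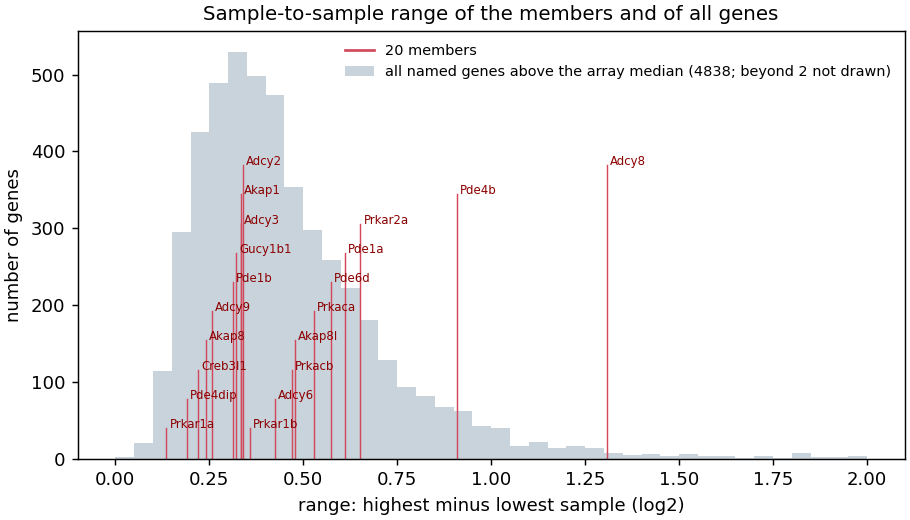
Histogram of the range (highest minus lowest sample, log2, horizontal axis) of the 4838 named genes above the array median (grey bars, number of genes on the vertical axis), with the 20 cyclic nucleotide genes as red lines whose heights only separate the names. Most red lines stand in the bulk of the histogram, Prkar1a lies at its left edge at 0.14, and Pde4b (0.91) and Adcy8 (1.31) lie in its right tail.

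Among the adenylyl cyclases, Adcy8 varied most. Adcy8 is a cyclase that calcium and calmodulin stimulate, known for its part in hippocampal plasticity. The signals of samples 1 to 6 were 105.9, 54.4, 81.1, 43.6, 43.1 and 72.0. Samples 1, 3 and 6 lay above the array median and the other samples under it, where signal above background is not shown. The range was 1.31 on the log2 scale (2.47-fold), wider than in 98.3% of all genes above the array median, and 1.69-fold when dimmer values were raised to the array median. Leaving out sample 1, 3 or 6 took Adcy8 out of the genes above the array median. In bulk RNA such as this, fewer cells of a type and less RNA per cell cannot be told apart.

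The other cyclases above the array median ranged from 1.19-fold to 1.34-fold. Adcy2, a cyclase stimulated by G protein beta-gamma subunits together with the stimulatory alpha subunit, had signals of 764.0, 590.0, 664.7, 646.1, 662.1 and 703.5 in samples 1 to 6. It was highest in sample 1 and lowest in sample 2, with a range of 0.34, or 0.22 without sample 1. Adcy3, the cyclase of olfactory neurons and of primary cilia, had 154.4, 134.2, 160.4, 147.6, 141.7 and 173.3. It too was lowest in sample 2, and it was highest in sample 6, with a range of 0.34. Adcy6, which calcium and inhibitory G proteins restrain, had 182.6, 170.9, 182.2, 154.9, 161.7 and 142.3, lowest in sample 6, with a range of 0.43. After division by the array medians its highest sample was sample 3, and in deposited signals sample 1.

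Adcy9, a widely expressed cyclase, was read by 2 bright probe sets that agreed on the lowest sample only. The probe set with the higher mean had 367.1, 428.3, 408.9, 396.8, 416.2 and 436.4 in samples 1 to 6, a range of 0.26, or 0.16 without sample 1. The other had 272.3, 266.6, 290.7, 337.7, 324.0 and 321.0, a range of 0.30. Both were lowest in sample 1 after scaling, but the first was highest in sample 2 (in sample 6 without scaling or with quantile normalization) and the second in sample 4. In deposited signals the second was lowest in sample 2.

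On the cyclic GMP side, 1 of the 3 guanylyl cyclases and not the single PKG gene was above the array median. Gucy1b1, the beta subunit of the nitric oxide receptor, had signals of 347.9, 330.9, 350.0, 322.1, 378.3 and 301.5 in samples 1 to 6. It was highest in sample 5 and lowest in sample 6, with a range of 0.32 (1.25-fold), under the median of all genes. Gucy2c, the intestinal guanylin receptor, and Gucy2e, a retinal guanylyl cyclase, lay under the array median in every sample. Prkg2, a membrane-bound PKG, had signals from 1.77 to 3.86, under 0.2 of the array median in every sample.

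Of the phosphodiesterases, Pde4b varied most. Pde4b degrades cyclic AMP and is a target of the inhibitor rolipram. The signals of samples 1 to 6 were 60.4, 78.8, 108.2, 78.5, 89.1 and 105.8. Sample 1 was the only sample under the array median, and samples 3 and 6 were the highest. The range was 0.91 (1.88-fold), wider than in 93.8% of all genes above the array median, and 0.54 without sample 1. In sample 1, where Pde4b was lowest, Adcy8 was highest.

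The calmodulin-dependent phosphodiesterases Pde1a and Pde1b, which degrade both cyclic AMP and cyclic GMP, were both above the array median and did not share an order of samples. Pde1a had 257.0, 309.7, 199.6, 285.6, 305.6 and 207.8 in samples 1 to 6. Samples 3 and 6 stood clearly below the rest, and the range was 0.61 (1.53-fold). The name of this probe set marks probes shared with other transcripts. A second Pde1a probe set, near the array median at 52.3, 65.2, 42.3, 60.7, 64.6 and 74.3, was also lowest in sample 3 but highest in sample 6, the sample in which the first was lowest after scaling. Pde1b, the form known from striatum, had 533.8, 470.8, 518.4, 494.8, 440.0 and 460.0, a range of 0.31. It was highest in sample 3 after scaling and in sample 1 without scaling or with quantile normalization, and lowest in sample 5 under all 3. Of 4 striatal marker genes on the array, 3 (Drd2, Rgs9 and Tac1) lay under the array median in every sample. The summed signal of the 4 lay between 361.9 (sample 4) and 440.6 (sample 5), of which Penk alone gave 277.3 and 352.3. The sum thus mostly describes Penk, and the part of striatal tissue in the Pde1b values was not tested.

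The remaining bright Pde genes are the ones that encode no phosphodiesterase. Pde6d had signals of 231.5, 186.9, 206.8, 186.3, 156.4 and 174.3 in samples 1 to 6, highest in sample 1 and lowest in sample 5, with a range of 0.57 (1.49-fold). Pde4dip had 307.3, 303.3, 309.4, 334.9, 325.0 and 351.2, and its range of 0.19 (0.11 without sample 6) was smaller than that of 92.3% of all genes above the array median.

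**Figure D2:**
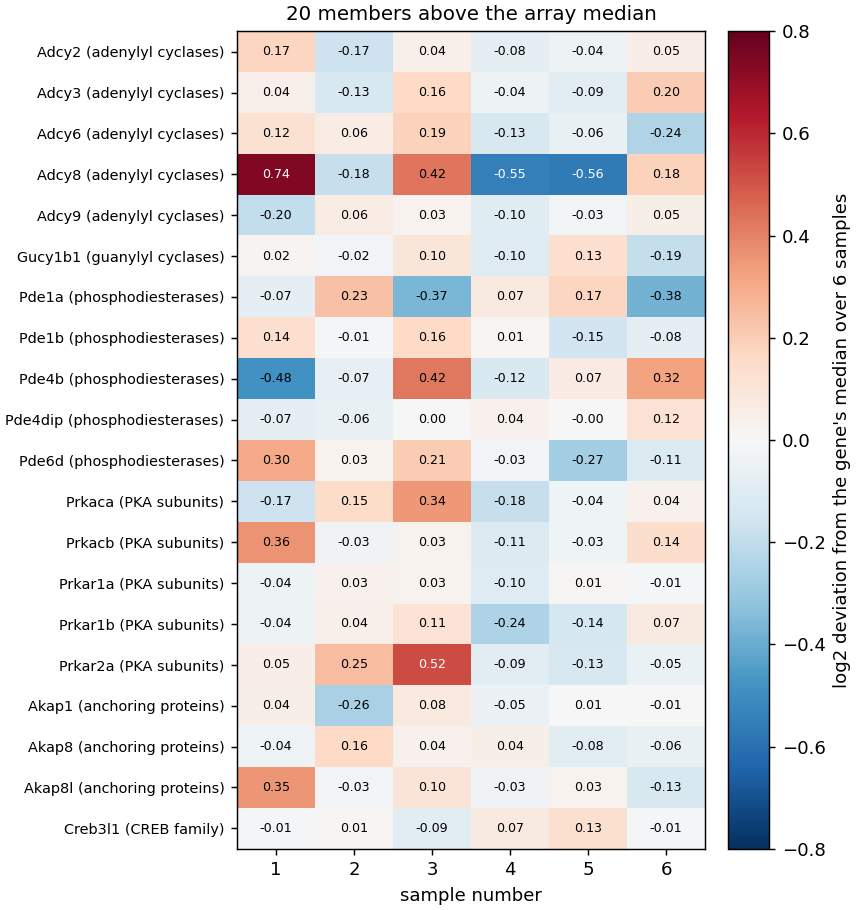
Log2 deviation of each of the 20 genes above the array median (rows, with their role) from its own median over the 6 samples (columns); red is above and blue below the median, with the value in each cell. Adcy8 has the strongest colours, from 0.74 in sample 1 to -0.56 in sample 5, and Prkar1a and Pde4dip are nearly blank.

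All 5 PKA subunits on the array were above the array median, and 4 of them were lowest in sample 4 (2 with quantile normalization), where 20.7% of all genes above the array median were lowest. Prkaca, the alpha catalytic subunit, had signals of 670.3, 816.3, 912.0, 668.5, 738.2 and 773.2 in samples 1 to 6. It was highest in sample 3 and lowest in samples 4 and 1, with a range of 0.53 (1.44-fold). Prkacb, the beta catalytic subunit abundant in brain, had 1401, 1045, 1061, 1020, 1072 and 1201, a range of 0.47 (1.39-fold). It was highest in sample 1, where Prkaca was next to lowest, so the catalytic subunits did not vary in parallel. Without sample 1 the range of Prkacb was 0.25.

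The regulatory subunits differed in how much they varied. Prkar1a, the ubiquitous type I alpha subunit, had signals of 3227, 3321, 3223, 3119, 3364 and 3294 in samples 1 to 6. These span a range of 0.14, and only 1.86% of all genes above the array median had a smaller one, and it was 0.07 without sample 4. Prkar1b, the neuronal type I beta subunit, had 1678, 1741, 1785, 1471, 1578 and 1818, lowest in samples 4 and 5, with a range of 0.36 (1.28-fold). A second bright probe set of Prkar1b had 790.2, 972.9, 798.2, 744.7, 626.8 and 712.0, a range of 0.68, and was highest in sample 2 and lowest in sample 5. Prkar2a, a type II subunit that binds most anchoring proteins, had 67.6, 75.7, 89.4, 61.7, 59.9 and 62.9, close to the array median. It was highest in sample 3 and lowest in samples 5 and 4, with a range of 0.65 (1.57-fold), or 0.38 without sample 3.

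Prkaca, Prkacb, Prkar1a and Prkar1b were thus the 4 subunits lowest in sample 4. For Prkaca the place was close, 668.5 in sample 4 against 670.3 in sample 1, and Prkar1a had a range of only 0.14. The same 4 were lowest in sample 4 in deposited signals, against 17.5% of all genes above the array median. With quantile normalization it was only Prkacb and Prkar1b, against 17.6%. No gene of the 20 was highest in sample 4, against 12.6% of all genes.

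**Figure D3:**
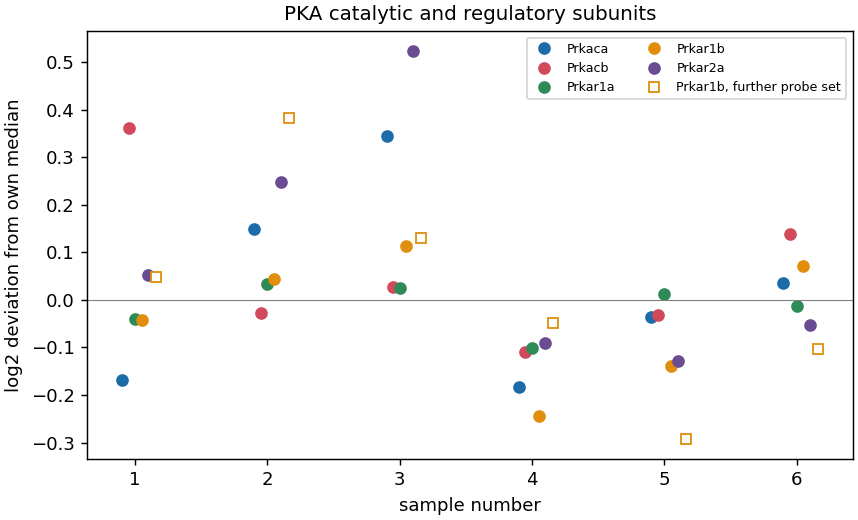
Log2 deviation of each PKA subunit from its own median (vertical axis) in samples 1 to 6 (horizontal axis); filled circles are the probe sets used, and open squares are the further probe set of Prkar1b. Prkacb stands alone at the top in sample 1 and Prkar2a and Prkaca in sample 3, all circles lie below 0 in sample 4, and the squares are lowest in sample 5.

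The anchoring proteins above the array median are the mitochondrial Akap1 and the nuclear proteins Akap8 and Akap8l. Akap1 had signals of 238.9, 189.4, 233.2, 226.3, 233.6 and 231.0 in samples 1 to 6. Its range of 0.34 rested on sample 2, where it was lowest, and without that sample the range was 0.12. The gap between sample 2 and the next lowest sample set Akap1 apart by Dixon's criterion, which 1 of the 20 genes met, against 5.89% of all genes above the array median. Sample 2 is also the one whose title code differs. A second bright probe set of Akap1, whose name marks shared probes, did not place sample 2 apart: it had 140.2, 157.1, 180.0, 122.7, 149.7 and 128.8, highest in sample 3 and lowest in sample 4. Yet another Akap1 probe set, at the array median, had 50.3, 61.4, 61.7, 68.6, 58.3 and 64.5 and was lowest in sample 1.

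Akap8 had 108.1, 121.1, 108.6, 115.3, 105.3 and 106.7 in samples 1 to 6, a range of 0.24, or 0.13 without sample 2, where it was highest. Of its 4 further probe sets, 3 are marked by name as shared or less specific. The unmarked probe set was dim, between 33.2 (sample 1) and 52.7 (sample 2), and was highest in sample 2 too. A marked one above the array median, at 85.2, 85.2, 80.7, 68.8, 82.5 and 87.5, was instead highest in sample 6 and lowest in sample 4. The remaining marked ones lay under the array median in every sample, 1 of them highest in sample 1 and the other under the floor throughout. Akap8l had 460.3, 346.3, 369.3, 356.9, 368.9 and 330.6, so sample 1 stood above the others. Its range was 0.48 (1.39-fold), and 0.23 without sample 1.

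Creb3l1 was the only gene named for CREB above the array median, at 289.8, 286.4, 261.2, 308.7, 320.7 and 290.5 in samples 1 to 6. It belongs to a class activated by cleavage at the Golgi rather than by PKA. The gene was highest in sample 5 and lowest in sample 3, with a range of 0.22, or 0.14 without sample 3. The probe sets of Creb1 and Crem, the CREB proteins that PKA phosphorylates, stayed below the array median on all 6 arrays. Creb1 had 39.0, 48.5, 44.2, 44.7, 39.0 and 7.18 in samples 1 to 6, with sample 6 far below the rest. Of its further probe sets, an unmarked one at 7.07, 8.90, 26.2, 23.2, 24.1 and 5.10 was also lowest in sample 6 in signal, although samples 1, 2 and 6 were all under the floor, and one marked as shared, at 25.2, 30.0, 34.9, 46.4, 41.3 and 37.7, was lowest in sample 1. Crem had signals from 30.5 in sample 6 to 51.5 in sample 2. Signal above background is not shown for either gene, so their sample-to-sample differences are uncertain.

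Every sample but sample 4 was the highest for some of the 20 genes, and every sample was the lowest for some. Sample 3 was the highest for 7 of the 20 genes, against 31.1% of all genes above the array median, and in deposited signals for 3, against 19.1%. Sample 1 was the highest for 5 of 20, against 17.3%, and for 8 in deposited signals, against 21.5%. Sample 2 was the highest for 4, against 15.6%, and samples 5 and 6 for 2 each, against 12.1% and 11.4%. The lowest sample was sample 5 for 5 of the 20 (20.0% of all genes), samples 4 and 6 for 4 each (20.7% and 15.0%), samples 1 and 2 for 3 each (21.6% and 11.6%) and sample 3 for 1 (11.1%). Under median scaling, no scaling and quantile normalization alike, 14 of the 20 genes kept their highest sample and 16 their lowest.

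Adcy8 ran in the same sample order as the ratio of a control transcript. The ratio of 3' to 5' signal of the 18S ribosomal RNA control was 10.3, 4.02, 7.71, 2.42, 1.59 and 4.98 in samples 1 to 6. Sample 1 was highest, then samples 3, 6, 2, 4 and 5, and the Adcy8 values had this order. Adcy8 lay under the array median in samples 2, 4 and 5 (54.4, 43.6 and 43.1), where signal above background is not shown. Its order among those samples is therefore uncertain. The 5' signal of this control lay under the array median in samples 1 and 3 (60.2 and 28.2), which makes its ratio uncertain there. In samples 2, 4, 5 and 6 its middle probe set (116.9, 104.8, 100.8 and 84.71) lay below the 5' one (284.3, 153.3, 331.1 and 99.05). The 18S signals thus did not fall steadily from 3' to 5', and their ratio is not read as a measure of how evenly RNA was copied. The pyruvate carboxylase ratio was also highest in samples 3, 6 and 1, at 3.56, 2.61 and 2.35, and 1.57, 1.97 and 1.62 in samples 2, 4 and 5. For beta-actin the ratio was 1.27, 1.11, 1.21, 1.19, 1.15 and 1.24, and for Gapdh 0.86, 0.793, 0.82, 0.808, 0.797 and 0.84, both with samples 1, 6 and 3 on top but over a narrower span. The transferrin receptor ratio did not follow Adcy8: it was 2.54, 2.70, 3.47, 2.85, 3.02 and 2.80 in samples 1 to 6, lowest in sample 1, where Adcy8 was highest, and second only to sample 3 in sample 5, where Adcy8 was lowest. The median deviation of the hippocampal neuron markers (8 genes above the array median, of 9 on the array) ran in the reverse order, -0.35, 0.01, -0.08, 0.11, 0.21 and -0.04 in samples 1 to 6, and their summed signal was between 3991 in sample 3 and 5850 in sample 5. The single markers did not share this order. Neurod6 and Neurod2 were highest in sample 3 after scaling, whereas Camk2a, Wfs1 and Gria1 were lowest there. Other marker lists differed between samples too. The median deviation of the choroid plexus markers ran from -2.919 in sample 1 to 1.725 in sample 6. Those of thalamus and habenula, myelin and astrocyte markers were also lowest in sample 1 (-0.32, -0.28 and -0.24). Endothelial and mural markers and meningeal markers lay above 0 there (0.12 and 0.14). The summed meningeal signal was between 2993 in sample 5 and 6892 in sample 2. Orders were compared over 5 control ratios and 8 marker lists after the values were seen. The part of RNA quality or tissue makeup in the Adcy8 values was not tested.

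Adcy2, Adcy3 and Prkacb, like Adcy8, had their 3 highest values in samples 1, 3 and 6. That made 4 of 20 genes, against 5.93% of all genes above the array median; Adcy8, whose order led to this count, is among the 4, so the count is a description only. Pde1a and Creb3l1 had their 3 lowest values in those samples, 2 of 20 genes, against 4.38%. The first count was 3 without scaling (Adcy2, Adcy3 and Adcy8) and 3 with quantile normalization (Adcy3, Adcy8 and Akap1), and the second was 1 under each, Pde1a, whose unmarked probe set did not show this. These samples were singled out by the order of Adcy8 itself and of the control ratios other than that of the transferrin receptor. They are not groups of the study.

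**Figure D4:**
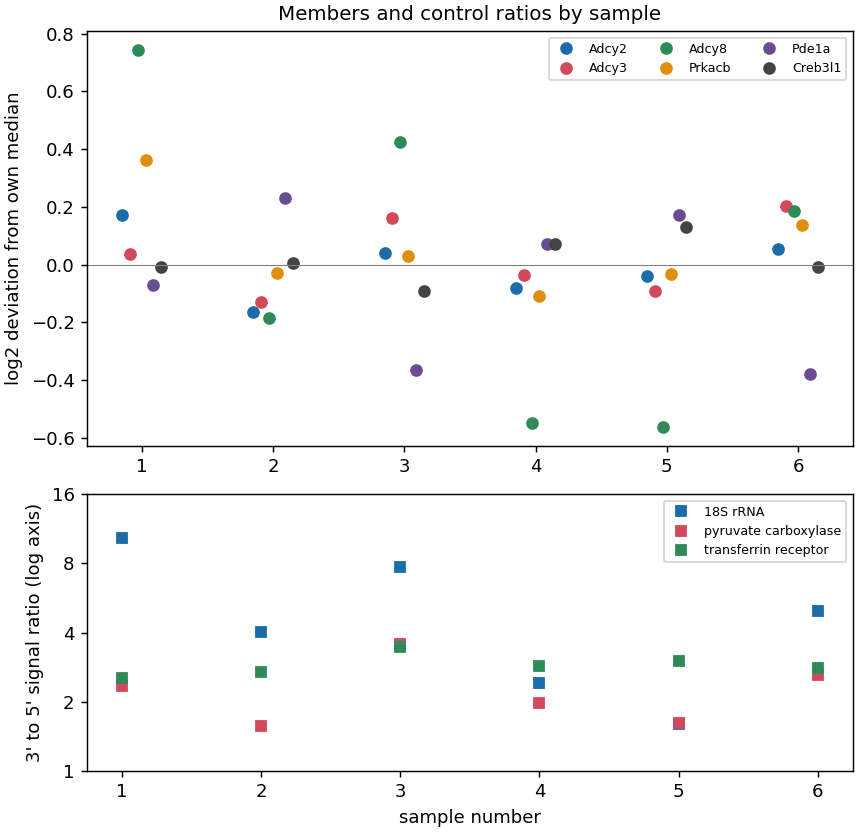
Upper panel: log2 deviation of each gene from its median (vertical axis) for 6 cyclic nucleotide genes in samples 1 to 6. Lower panel: the ratio of 3' to 5' signal of 3 control transcripts on a log axis for the same samples. Adcy8 and the 18S ratio are both highest in sample 1, then sample 3, then sample 6, and both are lowest in sample 5.

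The 20 genes not above the array median include those known from other tissues. The rod photoreceptor genes Pde6a, Pde6b and Pde6g, the sperm anchoring protein Akap4 and Gucy2c lay under the array median in every sample, as did 16 of the 20 in all. Pde1c, Prkg2, Akap4 and Akap7 were under 0.2 of the array median in every sample, the level at which values were floored, so their samples have no order. Adcy4, Pde8a, Pde9a and Akap9 lay over the array median in some samples only. Adcy4 did so in samples 1 and 2 (70.7 in each), Pde8a in sample 2 (75.6), Pde9a in sample 1 (66.9) and Akap9 in sample 4 (71.5).

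Measured ranges were wide among these dim genes but rest on values not shown to be above background. A range over 1 was seen for 7 of the 20, against 25.3% of all named genes not above the array median: Adcy7, Pde6b, Pde6g, Pde8a, Akap9, Akap12 and Creb1. The values of Adcy7, Pde6b and Creb1 in sample 6 and of Pde6g in sample 1 were at the floor, so their folds depend on it and are not given, and Pde8a, which reached over the array median in sample 2, ranged 2.48-fold. When dimmer values were raised to the array median, the count was 0. Akap12 (gravin) had 32.7, 40.7, 28.7, 15.7, 46.1 and 36.6 in samples 1 to 6, with sample 4 far below the rest. Adcy7 had 43.0, 20.8, 20.7, 31.3, 36.9 and 9.76, with sample 6 below the floor. Pde7a, Akap2 and Akap17b were dim with smaller ranges of 0.59, 0.73 and 0.63 on the log2 scale.

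**Figure D5:**
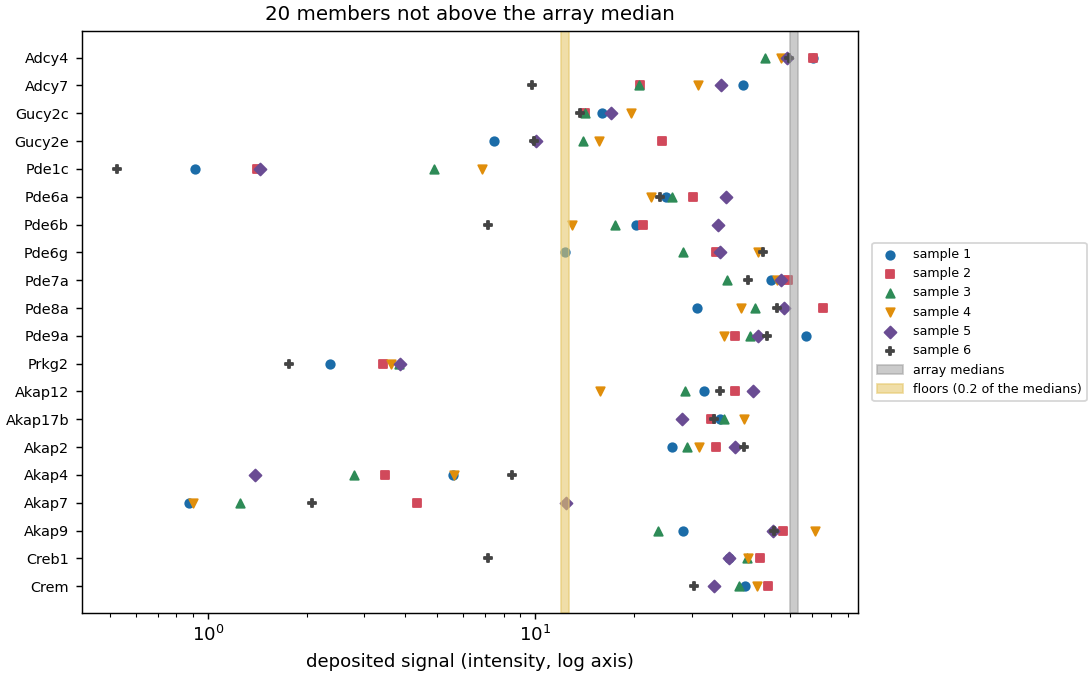
Deposited signal (horizontal log axis) of the 20 genes not above the array median, with a symbol for each of samples 1 to 6. The grey band spans the 6 array medians (59.9 to 63.3) and the yellow band the floors at 0.2 of them; 16 rows lie wholly left of the grey band, and Pde1c, Prkg2, Akap4 and Akap7 lie at or left of the yellow band.

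Other genes of the pathway, from 4 lists with 83 genes, gave 51 on the array and 30 above the array median. Of these 30, 2 had a range over 1, against the 4.20% of all genes above, and their median range was 0.50 against 0.40. Among receptors and G proteins (10 above the array median) it was Gnaz, an inhibitory G protein alpha subunit, at 185.0, 362.5, 273.6, 243.7, 267.5 and 307.3 in samples 1 to 6. Sample 1 was lowest and sample 2 highest, a 2.01-fold range (1.004 on the log2 scale), only just over 1. In deposited signals these samples were less than 2-fold apart, so the place of Gnaz in the count depends on the scaling. Gnas, the stimulatory alpha subunit that drives adenylyl cyclases, had signals between 6632 (sample 1) and 7864 (sample 6), a 1.19-fold range.

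Of the 2 genes above the array median on the list for nitric oxide and natriuretic peptides, Nos1, the neuronal nitric oxide synthase, had the wider range, 1.60-fold, between 69.8 (sample 3) and 117.5 (sample 5). Among the 6 other effectors and PKA inhibitors the widest was Hcn3, a channel opened by hyperpolarization and modulated by cyclic nucleotides, at 1.55-fold, and the PKA inhibitor Pkia ranged 1.21-fold. On the list of CREB coactivators and cyclic AMP-responsive genes, 12 genes were above the array median. Fos was the widest at 2.21-fold, and 6 of the 12 (Crebbp, Fos, Fosb, Junb, Egr1 and Nr4a2) were lowest in sample 3, against 11.1% of all genes. Without scaling 7 of the 12 were, against 17.6%, and with quantile normalization 7, against 16.3%. In sample 3 the 3' to 5' ratios of pyruvate carboxylase (3.56) and the transferrin receptor (3.47) were the highest of the 6 arrays, and their part in these values was not tested. Of the same 12 genes, 2 (Sst and Per1) were instead highest in sample 3 after scaling, and 1 without scaling. Among the 20 cyclic nucleotide genes, 7 were highest in sample 3 after scaling, against 31.1% of all genes above the array median. Without scaling 3 were (Prkaca, Prkar2a and Pde4b), against 19.1%.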

How the data were processed

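One table of 6 arrays was analysed (12488 probe sets, 66 of them controls). The deposited values are signal intensity on a linear scale; of the scanner, summary method and build, nothing is given in the sources used here. The mean between the 2nd and 98th percentiles was 150.0 on each of the 6 arrays, as scaling to a common target gives. The platform annotation gave the names: 10833 had 1 symbol, 396 several and 1193 none, and only the first kind was used. Of the 40 genes, 39 matched the RefSeq table by gene identifier, with the same symbol (Akap2 did not). Each array was divided by its median over non-control probe sets, lower values were raised to a floor of 0.2 of it, and log2 was taken. No groups are labelled, so no test between samples or groups was run (Dixon's criterion only marked single samples far from the rest), and genes were described by counts beside all genes. All 40 genes are named, with 6 values for those above the array median. Others come from pathway lists (the widest gene of a list and any with a range over 1) or were chosen after their values were seen. Marker genes were described only in part. Those above the array median with a range over 1 were Ttr (6.45), Folr1 (2.83), Fgfr3 (2.34), Ptgds (1.88) and Camk2a (1.81). Ugt8a (1.43), Tagln (1.24), Dcn (1.21), Lef1 (1.05) and Slc1a2 (1.01) were as well. Ttr and Folr1 lay under the array median in some samples. Genes, lists and rules were chosen with earlier results of these data known. Detection calls were not used. Software was Python 3.11.15, pandas 2.3.3 and numpy 2.4.6. The calculation of ranges was checked on simulated data with the same small noise for every gene. Large shifts were put into genes well above the array median there, so ranges as small as most of those given here were not tested.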

Additional observations from a re-analysis of the deposited data

Results flagged for a closer look

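Akap1 had 1 sample far from the others: the gap between sample 2 (189.4 in signal) and the next lowest sample was 0.632 of the whole log2 range, above Dixon's critical value for 6 samples. It was 1 of the 20 genes above the array median, against 5.89% of all such genes, and chance flags about 1 in 20 groups. The 6 samples form no group of the study, so this describes the arrays only. The further probe sets of Akap1 did not place sample 2 apart.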

How the results depend on the processing

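The count of genes above the array median lay between 17 and 20 under every alternative that gives one, and it is not defined with no filter on dim genes. The single gene with a range over 1 became 0 when dimmer values were raised to the array median and when the lowest sample had to lie above the array median. It became 8 of all 40 genes with no filter, where the median range was 0.52 against 0.46 for all genes. Leaving out each sample in turn gave counts from 0 (without sample 1, 3 or 6) to 1. With the mean of all probe sets the median range was 0.43, against 0.40 for all genes, so that the order of the 2 medians turned. The PKA subunits lowest in sample 4 were 2 with quantile normalization, 3 with probe sets averaged, and 4 to 5 with a sample other than sample 4 left out. The genes with their 3 lowest values in samples 1, 3 and 6 were 1 without scaling, 1 with quantile normalization and 1 without probe sets marked as shared. The PKA count and the counts for samples 1, 3 and 6, highest and lowest, were added after seeing the data. Of 280 recomputed ranges of single genes, 13 moved by more than the SD over the 6 samples, 11 of them on leaving out a sample. No paired analysis was possible because the labels give no groups. Background signal is unknown, which limits what dim genes show.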
